A study of Mus musculus with 80 samples.

Results

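The Oas family encodes 2'-5'-oligoadenylate synthetases and their relatives, and 6 of its mouse genes were followed here by symbol in both deposited tables: Oas1a, Oas1g, Oas2, Oas3, Oasl1 and Oasl2. They are 6 of 41388 mouse gene rows in the first table and 6 of 40481 in the second, and every one of the 6 passed the filter on low values in each comparison below.

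An OAS protein that binds double-stranded RNA joins ATP into short 2'-5'-linked oligoadenylates, a second messenger of the antiviral response. Oas1a, Oas1g, Oas2 and Oas3 are synthetase genes, Oasl2 encodes an OAS-like protein with synthetase activity, and Oasl1 encodes an OAS-like protein without it that is known to limit translation of the mRNA of Irf7. The genes are induced by type I interferon, which acts through the receptor IFNAR and the kinases JAK1 and TYK2 on promoter elements built of repeated GAAA units.

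The RNA came from hematopoietic stem cells (HSCs) and hematopoietic progenitor cells (HPCs) of mice on a B6 background and was read in 80 bulk libraries. An age series without a labelled genotype held HSCs at E14.5 (n = 3), E16.5 (n = 4), E18.5 (n = 3), P0, P7, P14 and 8 weeks (n = 4 each), and HPCs at E16.5 (n = 3), P0, P7 (n = 4 each), P14 (n = 5) and 8 weeks (n = 4). At P0, wild type and Ifnar -/- mice gave HSCs (n = 5 and 4) and HPCs (n = 4 and 4). At P14, HPCs came from Ifnar +/-, Flt3 +/+ (n = 4), Ifnar +/-, Flt3 ITD/+ (n = 4), Ifnar -/-, Flt3 ITD/+ (n = 5) and Ifnar -/-, Flt3 +/+ (n = 4) mice. Flt3 ITD is an internal tandem duplication allele of a receptor tyrosine kinase gene that is mutated in acute myeloid leukemia. The P14 controls were Ifnar heterozygotes, since no P14 group was labelled Ifnar +/+. The labels do not name the receptor subunit that was deleted, nor do they say whether the libraries of a group came from separate mice. The p-values therefore measure the spread between these libraries, which may be technical. In the age series the codes in the labels also change with age. HPCs have another letter at each age, and HSCs carry nb before birth, n at P0 and 8 weeks, and na at P7 and P14. What the codes stand for is not given. Where age and code change together they cannot be told apart.

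Of the 5 members with a promoter in the sequence table, 3 hold the interferon-type element, and these stretches show how alike Oas1a and Oas1g are just upstream of their start sites. The letters below are RefSeq sequence of GRCm38.p6, all from the minus strand of chromosome 5 and written 5′ to 3′, with every base of a match in capitals. A match is GAAA-NN-GAAA, where N is any base, or TTTC-NN-TTTC, which is the same element on the other strand. They lie at chr5:120907526-120907555 (Oas1a), chr5:120887614-120887643 (Oas1g), chr5:120777715-120777744 (Oas3) and chr5:120812606-120812635 (Oas1c, a relative that is not a member), each upstream of the annotated start.
Oas1a: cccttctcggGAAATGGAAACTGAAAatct
Oas1g: tgcccttctcggGAAATGGAAACTGAAAat
Oas3: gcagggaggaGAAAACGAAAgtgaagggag
Oas1c: atgggacTTTCAGTTTCCATTTCccgggaa
Oas1a and Oas1g each held 2 overlapping matches, 20 to 5 bases before the start of Oas1a and 18 to 3 bases before that of Oas1g. Oas3 held 1 match, 75 to 66 bases before its start. The search covered both strands of the 250 bases before the start, and 978 of 32851 promoters in the table (2.98%) held a match. No match lay in the windows of Oasl1 and Oasl2, which says only that these letters are not there, and no promoter was read for Oas2. The Oas1c window holds the 16 letters GAAATGGAAACTGAAA of the Oas1a and Oas1g promoters on its other strand, 114 to 99 bases before its start.

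The likeness of Oas1a and Oas1g extends into the transcripts. Of the 50-base stretches of Oas1a, 57.6% (1057 of 1836) also occur in Oas1g, and 45.7% of those of Oas1g occur in transcripts of another gene. Upstream of the genes, their longest identical run was 56 bases and ended 3 bases before the Oas1a start. Reads from the shared transcript stretches cannot be assigned to either gene by sequence. They may have been left out of the counts or credited to either gene. The separate values of Oas1a and Oas1g, and their ranks among the members, are therefore uncertain. The part of the other members shared with any other gene was at most 0.3% (Oas3), and none for Oas2 and Oasl1. The shared stretches of Oas3 and Oasl2 lay outside the other Oas genes compared.

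Library sizes ran from 6.95 to 25.4 M (mega) reads in the age series. Among the P0 wild type and Ifnar -/- libraries they ran from 37 to 46.3 M reads in HSCs and 11.7 to 14.7 M in HPCs. The P14 genotype libraries held 58.4 to 92.1 M reads. Values are given as RPKM, which scales the reads of a gene to its length and to the library size. Cell labels were checked with marker lists: the summed level of 7 HSC genes was 1.83e+03 to 3.15e+03 CPM (counts scaled to library size) in HSC groups and 519 to 1.79e+03 in HPC groups. Ifnar1 RNA was not lower in Ifnar -/- cells (at P0, 58.1 to 70.2 CPM in HSCs against 51.1 to 74.5 in wild type), so the RNA of this gene does not check the genotype. One library stood apart: Ifnar +/-, Flt3 +/+ replicate 2 at P14 had a median correlation of 0.921 with its group, against 0.965 to 0.966 for the other 3. It had 1.09e+03 CPM of Flt3, where the other 3 had 104, 108 and 161 CPM, and the Ifnar -/-, Flt3 +/+ group had 609 to 1.03e+03. The 3 are thus low in Flt3 for a Flt3 +/+ group, below Ifnar +/-, Flt3 ITD/+ (433 to 547 CPM) as well. Whether these 3 or replicate 2 match the label of the group cannot be settled from the files, and every comparison with it takes the libraries as labelled. P14 results are given with and without it. In bulk RNA, fewer cells of an expressing type and less RNA per cell cannot be told apart.

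In HSCs, all 6 members rose between E16.5 and E18.5 and stood higher at E18.5 than in any other HSC group of the age series by mean RPKM. Oasl2, the most abundant member per length, measured 23.9, 27.7, 35.3 and 36.6 RPKM at E16.5 and 179, 119 and 145 RPKM at E18.5. Oas1a measured 17.1, 20.1, 21.9 and 26 RPKM at E16.5 and 81, 74.5 and 73 RPKM at E18.5. In both genes the lowest E18.5 library was above the highest E16.5 library by a wide margin. Oas3, whose protein carries several synthetase units, measured 3.24, 2.32, 4.55 and 3.79 RPKM at E16.5 and 21.1, 16.8 and 14.3 RPKM at E18.5. Oas1g measured 2.06, 1.58, 2.38 and 1.84 RPKM at E16.5 and 12.7, 8.75 and 11.5 RPKM at E18.5. For these synthetase genes too the groups did not overlap. Oas2, the least abundant member in every HSC group, measured 2.51, 1.42, 2.12 and 1.57 RPKM at E16.5 and 6.12, 9.49 and 7.35 RPKM at E18.5. Oasl1 measured 9, 5.33, 7.22 and 9.04 RPKM at E16.5 and 35.2, 17.7 and 18.7 RPKM at E18.5, with 1 library well above the other 2. No member's groups overlapped. The share of all genes without overlap was not computed, so this count has no background.

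**Figure D1:**
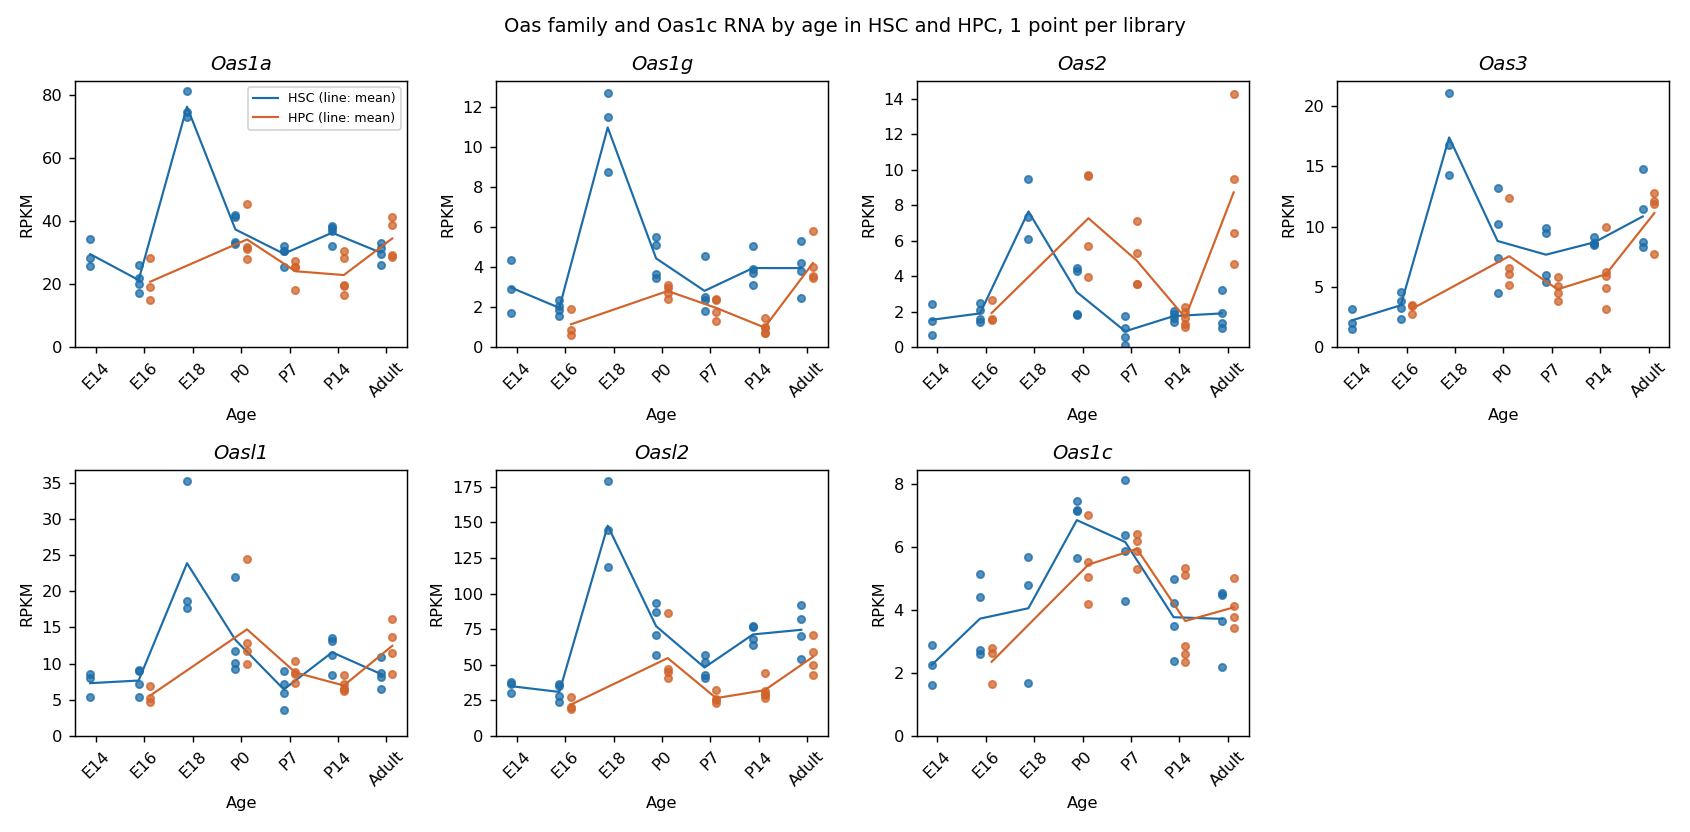
RPKM of each Oas member and of the relative Oas1c in every library of the age series (y axis, linear from 0) by age (x axis, with E14, E16 and E18 for E14.5, E16.5 and E18.5, and Adult for 8 weeks). Points are libraries, lines join the group means, and HSCs are blue and HPCs orange; no HPC library was sampled at E14.5 or E18.5, so the HPC line passes over E18. The 3 E18.5 HSC points of Oasl2 lie between 119 and 179 RPKM, above every other point of that gene.

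On the log2(RPKM + 0.5) scale of the limma fit, which understates folds of low genes, the E18.5 rise was 2.2 ± 0.2 (SE) for Oasl2 (adjusted p = 2.89e-08), 2.18 ± 0.28 for Oas1g (1.04e-05) and 2.14 ± 0.29 for Oas3 (2.57e-05). It was 1.79 ± 0.14 for Oas1a (adjusted p = 5.84e-09 in limma), 1.73 ± 0.38 for Oas2 (0.00657) and 1.5 ± 0.3 for Oasl1 (0.0027). Of all 13375 genes tested, 2.41% were higher at this step, where 6 of 6 members were. The median change of the members was 1.97, and that of all genes was -0.01. As ratios of pooled reads scaled to depth, the rises ran from 3.17-fold (Oasl1, 95% counting interval 2.95 to 3.41) to 5.86-fold (Oas1g, 5.1 to 6.74). These intervals cover counting error only.

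Of the other double-stranded RNA proteins, 6 of 7 tested rose: Zbp1 (log2 difference 2.04), Dhx58 (1.86), Ddx58 (1.29), Eif2ak2 (1.1), Ifih1 (0.95) and Adar (0.84). These are sensors of foreign or altered nucleic acid, the kinase PKR (Eif2ak2) and the RNA editor ADAR1. Of 8 genes listed upstream of Oas transcription, 4 rose: Irf7 (2.47), Irf9 (1.36), Stat2 (0.95) and Irf1 (0.52). The genes of the receptor chains and its kinases, Ifnar1, Ifnar2, Jak1 and Tyk2, did not pass the test.

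Markers of other cells moved in the same libraries. The summed level of 4 plasmacytoid dendritic cell genes (Siglech, Bst2, Ccr9, Pacsin1), a cell type known for making type I interferon, was 71.4 to 101 CPM in E16.5 HSCs and 138 to 165 CPM at E18.5. Nearly all of it was Bst2, itself an interferon-induced gene (131 to 161 CPM at E18.5), while Siglech was at 0 reads in every HSC library. The macrophage list summed to 61.6 to 93.5 CPM at E16.5 and 98.8 to 117 CPM at E18.5. The HSC list summed to 2.14e+03 to 2.27e+03 CPM at E16.5 and 2.63e+03 to 2.74e+03 CPM at E18.5, and the progenitor list to 1.75e+03 to 2.25e+03 and 1.47e+03 to 1.55e+03 CPM. Within the progenitor list, Cd48 was at 34 to 55.9 CPM at E16.5 and 1.41 to 4.9 CPM at E18.5, and Mpo at 68.1 to 281 and 6.73 to 14.6 CPM, with no overlap in either. At P0, Cd48 was at 31 to 44.1 CPM and Mpo at 27.9 to 262 CPM. The part of these markers in the Oas values was not tested.

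Between E14.5 and E16.5 limma called none of the 6 members, and 0.0523% of all genes. At an unadjusted p under 0.05 there was 1, Oas1a (log2 difference -0.51 ± 0.14, adjusted p = 0.321 in limma), and edgeR on reads recovered from the RPKM values called 0. Oasl2 stood at 37.8, 30.4 and 36.6 RPKM at E14.5 and overlapped its E16.5 values.

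In HSCs of the age series, mean levels were lower at P0 than at E18.5 for all 6 members, and 4 passed the test. At P0 Oasl2 measured 71.1, 86.8, 93.7 and 56.6 RPKM and Oas1a 33.3, 41.1, 42 and 32.7 RPKM, all below every E18.5 library. Between E18.5 and P0 limma called 4 of 6 members lower, where 1.81% of all genes were: Oas1a by -1.01 ± 0.14 (adjusted p = 9.69e-05), Oas1g by -1.21 ± 0.28 (0.00952), Oas3 by -1.01 ± 0.29 (0.0421) and Oasl2 by -0.93 ± 0.2 (0.00592). Oas2 (-1.24 ± 0.38, adjusted p = 0.0599 in limma) and Oasl1 (-0.82 ± 0.3, 0.121) did not pass. The Oas3 call is close to the threshold and was lost under 5 of the alternative settings. Leaving out single libraries gave 2 to 5 members called, and 2 without E18.5 replicate 1. The P0 HSCs labelled wild type, a separate set of libraries, had 131 to 329 RPKM summed over the 6 members. In the age series this sum was 246 to 335 RPKM at E18.5 and 111 to 180 RPKM at P0. The wild type set had a mean of 11.3 RPKM for Oas1g, against 11 at E18.5, and its means of the other members lay below E18.5. The fall is thus shown for the age series only, and these sets were not compared by a test.

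From P0 to P7, limma called Oas2 (-1.41 ± 0.35, adjusted p = 0.016), Oasl1 (-0.95 ± 0.28, 0.0415) and Oasl2 (-0.63 ± 0.18, 0.0359) lower, 3 of 6 against 2.67% of all genes. Oas2 showed the widest gap: 1.8, 4.49, 4.27 and 1.86 RPKM at P0 and 0.58, 1.78, 1.1 and 0.116 RPKM at P7. Its lowest P0 library was barely above its highest P7 library. Fitting these 2 ages alone left 0 members called. Leaving out P7 replicate 1 or 4 or P0 replicate 3 left 0, and leaving out P7 replicate 2 or P0 replicate 1 or 2 left 1.

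No member was called between P7 and P14 (1.71% of all genes were), between P14 and 8 weeks (5.33%) or between P0 and 8 weeks (21%) by limma in HSCs. At an unadjusted p under 0.05 there were 4, 0 and 1 members, and edgeR on recovered reads called 0 at each of these steps. Those 4 at P14 were Oasl2 (0.57 ± 0.18, adjusted p = 0.129 in limma), Oasl1 (0.84 ± 0.28, 0.151), Oas2 (0.84 ± 0.35, 0.288) and Oas1a (0.28 ± 0.13, 0.372). From E16.5 to 8 weeks 4 of 6 were higher, where 12.3% of all genes were: Oas3 by 1.51 ± 0.27 (adjusted p = 0.000106), Oasl2 by 1.25 ± 0.18 (6.78e-06), Oas1g by 0.83 ± 0.26 (0.0182) and Oas1a by 0.5 ± 0.13 (0.00701). Oas2 (-0.05) and Oasl1 (0.16) had returned to within 0.2 log2 units of the E16.5 level. At 8 weeks Oas3 measured 8.76, 8.31, 11.5 and 14.8 RPKM and Oas2 measured 1.35, 1.07, 1.95 and 3.25 RPKM. The Oas3 values all exceeded its E16.5 values, and the Oas2 values straddled theirs.

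In HPCs, the mean of every member was higher at P0 than at E16.5, lower at P7 and P14 than at P0, and higher at 8 weeks than at P14. Oasl2 measured 20.4, 27 and 18.6 RPKM at E16.5 and 44.7, 86.2, 47.1 and 40.6 RPKM at P0. Oasl1 measured 5.22, 4.62 and 6.88 RPKM at E16.5 and 12.8, 24.5, 11.7 and 9.89 RPKM at P0. P0 replicate 2 was the highest library in both genes, and the groups did not overlap in either. Oas2 measured 1.53, 1.59 and 2.66 RPKM at E16.5 and 5.72, 9.72, 9.67 and 3.98 RPKM at P0. Oas3 measured 3.48, 3.4 and 2.71 RPKM at E16.5 and 6.56, 12.4, 5.15 and 6.07 RPKM at P0. Again no P0 library fell into the E16.5 range.

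By edgeR's quasi-likelihood test 4 of 6 members were higher in P0 HPCs, where 2.6% of all 14754 genes were: Oas2 by 1.94 ± 0.36 (log2, adjusted p = 0.00366), Oasl1 by 1.42 ± 0.27 (0.00375), Oasl2 by 1.3 ± 0.24 (0.00366) and Oas3 by 1.23 ± 0.3 (0.0262). Oas1g (1.24, adjusted p = 0.0682 in edgeR) and Oas1a (0.7, 0.173) did not pass. Fitting these 2 ages alone left 2 of the 6 called. Of the other double-stranded RNA proteins 5 of 8 rose, and of the upstream genes only Irf7 (2.4) did among the 8. Cell markers moved at this step too: from E16.5 to P0 the macrophage list summed to 49.1 to 84.4 and 105 to 150 CPM, the plasmacytoid dendritic cell list to 116 to 151 and 157 to 173 CPM, and the T and NK cell list to 78.1 to 89.7 and 110 to 145 CPM. The endothelial list (128 to 176 and 183 to 213 CPM) and the hepatocyte list (17.3 to 24.8 and 26.5 to 28 CPM) did not overlap either. Their part in the Oas values was not tested.

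Between P0 and P7 HPCs, edgeR called Oasl2 lower (-1.07 ± 0.22, adjusted p = 0.0103), 1 of 6 members against 0.908% of all genes. Its P7 values of 32.2, 24.9, 26 and 23 RPKM lay below every P0 value. Without P0 replicate 2 the count was 0, and DESeq2 called 2. Between P7 and P14 it called Oas2 lower (-1.43 ± 0.3, adjusted p = 0.00558), where 5.06% of all genes were, and 2 members were lower without P14 replicate 2. Oas2 measured 7.09, 3.57, 5.31 and 3.54 RPKM at P7, then 1.3, 1.64, 1.12, 1.99 and 2.25 RPKM at P14. At 8 weeks it measured 9.48, 4.68, 6.46 and 14.3 RPKM. The P14 libraries were thus the low point of Oas2 among postnatal HPCs and overlapped neither neighbour.

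From P14 to 8 weeks, 3 of 6 members were higher in HPCs by edgeR, where 14.9% of all genes were: Oas2 by 2.15 ± 0.3 (adjusted p = 3.64e-05), Oas1g by 1.82 ± 0.31 (0.000284) and Oasl2 by 0.56 ± 0.2 (0.0449). Oas1g measured 1.03, 1.46, 0.979, 0.73 and 0.714 RPKM at P14 and 3.55, 4.03, 3.44 and 5.79 RPKM at 8 weeks, with no overlap. The Oasl2 call was lost with RLE size factors (adjusted p = 0.0608 in edgeR), in DESeq2 (0.059), without the filter on low counts (0.0619), with the replicate block (0.0899) and in 7 of the 9 fits that left out 1 library. Over those 9 fits 2 to 5 members were called, and 5 without 8-week replicate 3. From E16.5 to 8 weeks 5 of 6 were higher (again 14.9% of all genes), with log2 differences of 2.05 for Oas2, 1.68 for Oas1g, 1.64 for Oas3, 1.18 for Oasl2 and 1.03 for Oasl1. Oas1a differed by 0.57 (adjusted p = 0.123, edgeR).

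HSCs and HPCs were compared at the 5 ages that both have, in one limma fit over the 46 libraries. The 2 cell types carry different label codes and were deposited in different units. Cell type and library set therefore cannot be told apart in these comparisons. Oas2 was the member that differed most often: it was lower in HSCs at P0 by -1.2 ± 0.34 (adjusted p = 0.0041), at P7 by -2.09 ± 0.34 (2.95e-06) and at 8 weeks by -1.88 ± 0.34 (2.74e-05). At P7 its HSC libraries reached at most 1.78 RPKM and its HPC libraries at least 3.54 RPKM. At P14, where HPCs were low, its values overlapped (1.44 to 2.03 RPKM in HSCs and 1.12 to 2.25 RPKM in HPCs). At P0 and 8 weeks Oas2 was the one member called, where 18.2% and 15.4% of all genes were lower in HSCs. The count was 2 at P0 without HSC replicate 4 or HPC replicate 2, and 2 at 8 weeks without HSC replicate 1.

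Oasl2 was higher in HSCs at P7 by 0.79 ± 0.2 (adjusted p = 0.00172, limma) and at P14 by 0.95 ± 0.19 (0.00011). At P7, 2 of 6 members were called (Oas2 and Oasl2), where 41.2% of all genes differed, so the members were not called more often than genes in general. At P14, 3 of 6 were higher in HSCs, where 17.7% of all genes were: Oas1g by 1.44 ± 0.24 (adjusted p = 5.63e-06, limma), Oasl2, and Oas1a by 0.48 (0.0344). The Oas1a call was lost without the filter on low RPKM (adjusted p = 0.0674 in limma), by edgeR on recovered reads (0.0733), with the replicate block (0.0707) and in 6 of the 9 fits that left out 1 library. Oas1g measured 3.71, 3.13, 5.07 and 3.91 RPKM in P14 HSCs, above all 5 HPC values. Without TMM scaling the median of all genes moved by 0.185 at P14, the largest shift among these comparisons, and the split of all calls went from 2540 higher and 2778 lower to 3629 and 1792. At E16.5 limma called 0 members, where 23.1% of all genes were called (1810 higher and 1498 lower, and 2132 and 1145 without TMM). There was 1 at an unadjusted p under 0.05 (Oas1g, 0.59 ± 0.27, adjusted p = 0.114 in limma), 0 by edgeR on recovered reads, and 1 by limma without HPC replicate 2. The change from E16.5 to P0 was not shown to differ between the cell types for any member: limma called 0 of 6, where 1.41% of all genes were called, and edgeR on recovered reads also called 0. There was 1 at an unadjusted p under 0.05, Oas2 with a difference of -1.12 (adjusted p = 0.27 in limma).

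**Figure D2:**
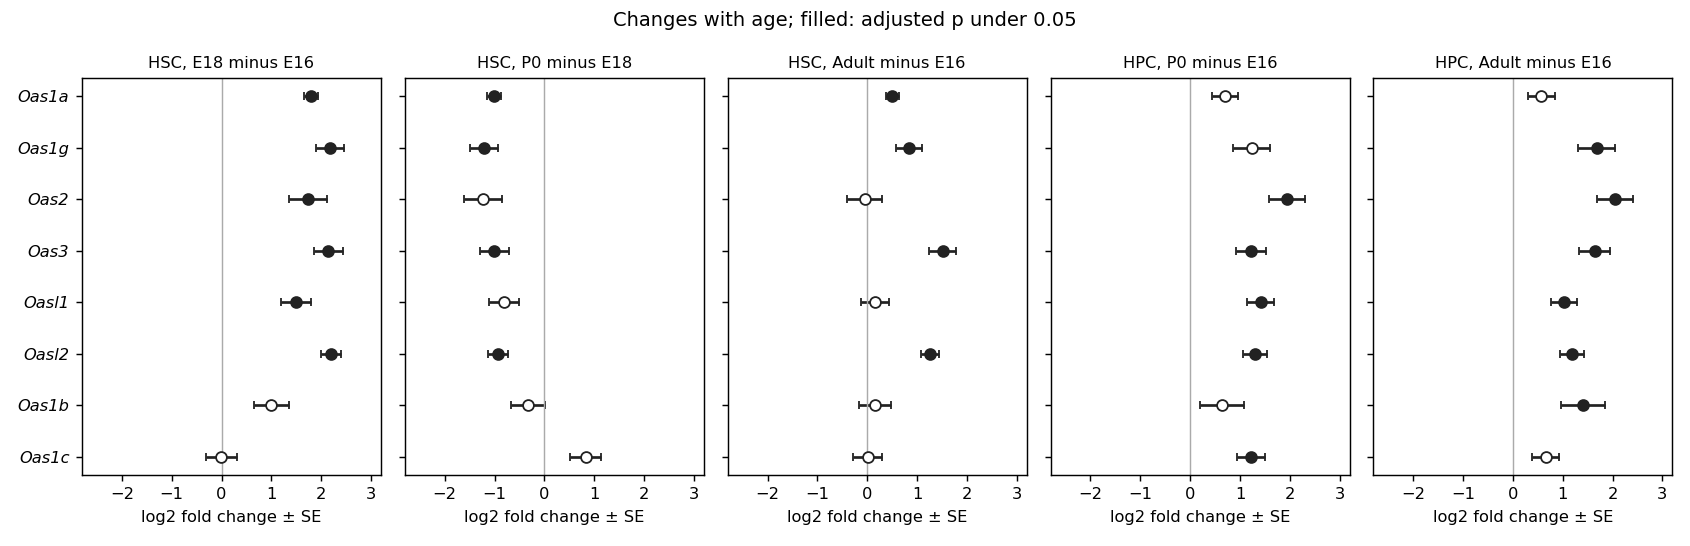
Log2 difference (x axis) of the 6 members, Oas1b and Oas1c (rows) in 5 comparisons of ages, with bars of 1 SE; filled points passed the adjusted threshold and open points did not. All 6 members are filled in the HSC panel of E18.5 against E16.5, and Oas1b and Oas1c are open.

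By mean RPKM, Oasl2 was the highest and Oas1a the next in all 12 groups of the age series. In some of these groups their ranges overlapped. Oasl2 was at 18.6 to 27 RPKM and Oas1a at 15 to 28.2 RPKM in E16.5 HPCs. The ranges were 30.4 to 37.8 and 25.6 to 34.4 RPKM in E14.5 HSCs. Oasl2 made up 37.4% (P7 HPCs) to 57.4% (8-week HSCs) of the summed RPKM of the 6. In 8-week HSCs Oasl2 (53.8 to 92 RPKM) did not overlap Oas1a (25.9 to 33 RPKM), whereas Oas3 (8.31 to 14.8 RPKM) and Oasl1 (6.5 to 10.9 RPKM) overlapped and cannot be ranked. The sum over the 6 was 78.4 ± 10.1 RPKM (SD, n = 3) at E14.5, 67.1 ± 10.6 (n = 4) at E16.5, 284 ± 45.7 (n = 3) at E18.5 and 144 ± 30.3 (n = 4) at P0 in HSCs. In HPCs it was 54.5 at E16.5, 121 at P0, 70.9 at P7, 70.5 at P14 and 126 RPKM at 8 weeks. Within the age series, Oas2 had the lowest mean of the 6 in all 7 HSC groups, and Oas1g had it in all 5 HPC groups. The gap was small in E16.5 HSCs, at 1.9 RPKM for Oas2 and 1.97 for Oas1g. The order was not a trait of all HPCs, since Oas2 was the lowest in both Ifnar +/- groups at P14. There its mean was 1.47 RPKM against 3 for Oas1g with Flt3 +/+, and 7.77 against 14.1 with Flt3 ITD/+.

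Across the 26 HSC libraries of the age series, the genes most like the members, by correlation with the mean of their 6 standardized log2 levels, were Dhx58 (Pearson's r = 0.956), Rtp4 (0.933), Ifit1 (0.932), Xaf1 (0.926) and Isg15 (0.924), out of 11473 genes ranked. Across the 20 HPC libraries they were Usp18 (0.953), Ifit1 (0.946), Xaf1 (0.938), Rsad2 (0.933) and Irf7 (0.892), out of 12730. Between pairs of members r ran from 0.54 (Oas2 with Oas3) to 0.89 (Oas3 with Oasl2) in HSCs, and from 0.47 (Oas1a with Oas2) to 0.87 (Oas3 with Oasl2) in HPCs. These are descriptions over libraries that share an age or a depth, without a test.

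At P0, every member fell in Ifnar -/- HSCs, some to single reads. Oasl2 measured 76, 59, 61.2, 105 and 144 RPKM in wild type HSCs and 5.27, 7.38, 11.8 and 12.3 RPKM in Ifnar -/- HSCs. Oas1a measured 48.4, 48.6, 41.4, 96.4 and 104 RPKM in wild type and 2.53, 3.14, 2.9 and 5.96 RPKM in Ifnar -/-. The groups lay far apart, and wild type replicates 4 and 5 were higher than the other 3 in both genes. Oas3 measured 8.99, 7.78, 6.73, 21.1 and 23.8 RPKM in wild type and 0.0581, 0.149, 0.381 and 0.268 RPKM in Ifnar -/-. Oasl1 measured 14.6, 9.68, 10.1, 30.2 and 29.5 RPKM in wild type and 0.612, 0.232, 0.46 and 0.394 RPKM in Ifnar -/-. Replicates 4 and 5 were again the high wild type libraries. Oas1g measured 8.17, 8.36, 7.15, 16.2 and 16.8 RPKM in wild type and had 6, 4, 7 and 9 reads in the 4 Ifnar -/- libraries. Oas2 had 1183, 658, 939, 1425 and 2159 reads in wild type libraries and 0, 0, 1 and 0 reads in Ifnar -/- libraries. In none of the 6 did the groups overlap. The share of all genes without overlap was not computed here either.

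**Figure D3:**
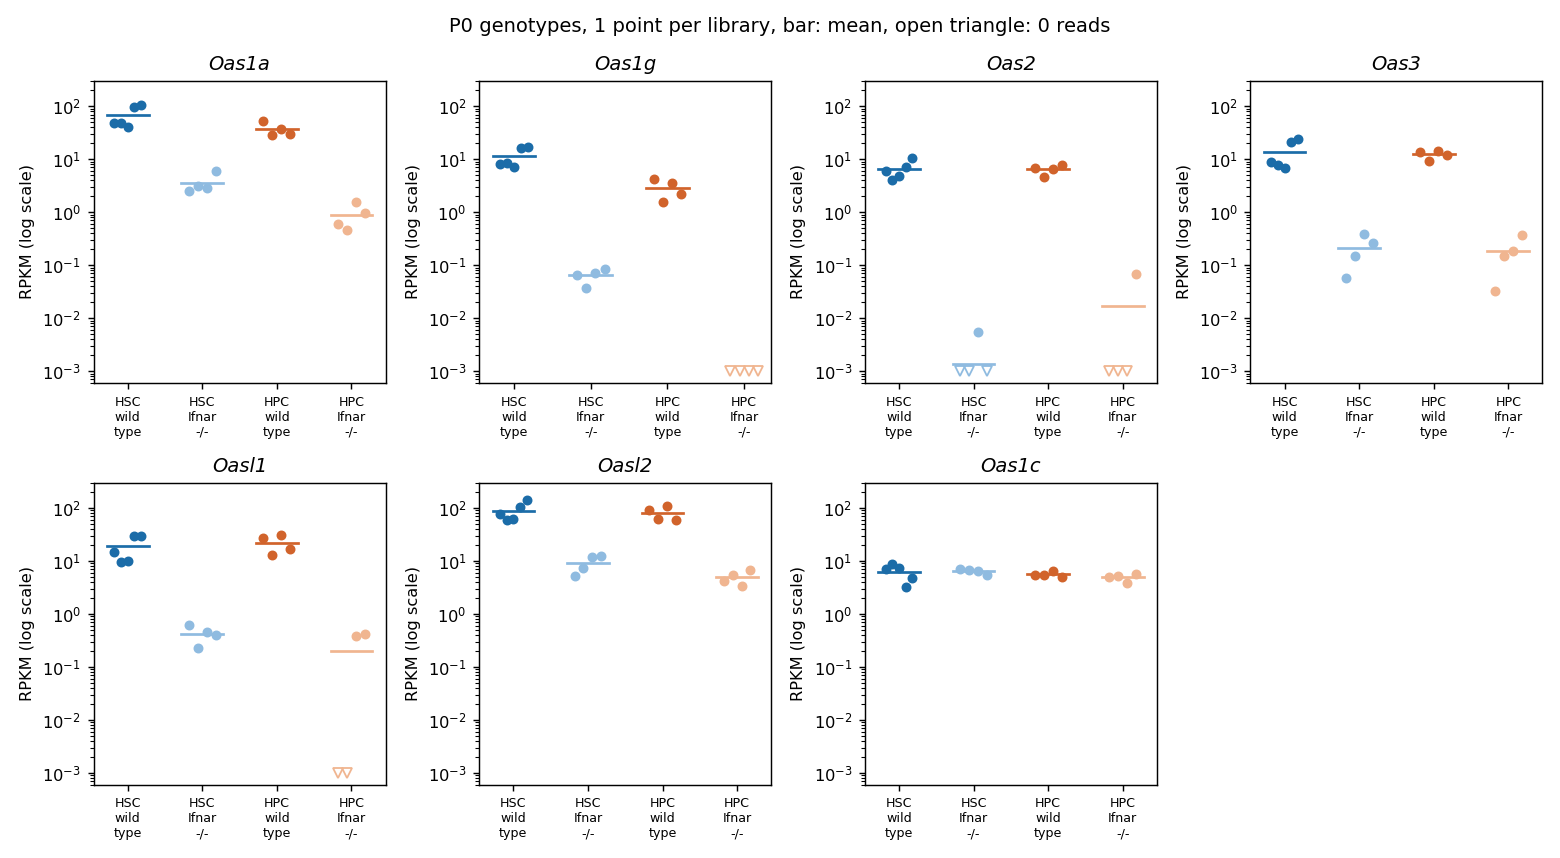
RPKM of each member and of Oas1c in every P0 library (y axis, logarithmic, with open triangles at the bottom for 0 reads) for wild type and Ifnar -/- HSCs and HPCs (x axis), 1 point a library with the group mean as a bar. Oasl2 keeps 5.27 to 12.3 RPKM in Ifnar -/- HSCs, while Oas2 has 1 read in 4 libraries and Oas1c overlaps between the genotypes.

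By edgeR 6 of 6 members were lower in Ifnar -/- HSCs, where 0.937% of all 16224 genes were. The log2 difference was -3.3 ± 0.33 for Oasl2 (adjusted p = 4.9e-05), -4.25 ± 0.38 for Oas1a (1.8e-05), -5.51 ± 0.48 for Oasl1 (1.31e-05), -6.04 ± 0.58 for Oas3 (3.29e-05) and -7.46 ± 0.44 for Oas1g (3.45e-07). As ratios of pooled reads scaled to depth, wild type exceeded Ifnar -/- 9.78-fold for Oasl2 (95% counting interval 9.53 to 10), 18.7-fold for Oas1a, 46.3-fold for Oasl1, 64.9-fold for Oas3 and 179-fold for Oas1g (122 to 275). For Oas2, with 1 read in the Ifnar -/- group, the ratio was 5.11e+03 with an interval of 916 to 2.02e+05. The fitted value of such a gene depends on the prior count and gives no bound.

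The members were also lower in Ifnar -/- HPCs of the same age. Oasl2 measured 91.5, 63.1, 107 and 60.1 RPKM in wild type HPCs and 4.13, 5.4, 3.41 and 6.62 RPKM in Ifnar -/- HPCs. Oas1a measured 53.2, 28.9, 36.9 and 30.2 RPKM in wild type and 0.59, 0.456, 1.53 and 0.979 RPKM in Ifnar -/-. Neither gene's groups came near each other. Oas3 measured 13.9, 9.31, 14.2 and 12.3 RPKM in wild type and 0.0328, 0.15, 0.189 and 0.368 RPKM in Ifnar -/-. Oasl1 had 919, 428, 1086 and 635 reads in wild type and 0, 0, 13 and 14 reads in Ifnar -/-. Oas1g had 133, 47, 112 and 77 reads in wild type and 0 in all 4 Ifnar -/- libraries. Against a floor of 3 reads over that group, Oas1g was at least 115-fold higher in wild type. Oas2 had 396, 265, 397 and 507 reads in wild type and 0, 0, 0 and 4 in Ifnar -/-, a ratio of 365 (142 to 1.34e+03).

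All 6 members were lower in Ifnar -/- HPCs by edgeR, where 5.58% of all 12988 genes were. The log2 difference was -4.11 ± 0.25 for Oasl2 (adjusted p = 9.52e-07), -5.44 ± 0.34 for Oas1a (3.67e-07), -6.11 ± 0.37 for Oas3 (2.74e-07) and -6.79 ± 0.7 for Oasl1 (0.000502). The pooled ratios were 16.4 for Oasl2, 41.2 for Oas1a, 65.9 for Oas3 and 106 for Oasl1 (72.7 to 161). For Oasl2, Oas1a and Oasl1 these ratios lay above those in HSCs, with counting intervals that did not overlap, and for Oas3 the intervals overlapped. These intervals leave out the spread between libraries. The P0 HSC and HPC libraries also carry different code prefixes in their labels and differ in depth. Cell type and library set therefore cannot be told apart in this contrast. A difference in the effect of the genotype between HSCs and HPCs did not pass the test over libraries: in the fit over 17 libraries edgeR called 0 of 6 members, where 1.75% of all genes were called. There was 1 at an unadjusted p under 0.05, and DESeq2 called 0. The differences were 1.21 for Oas1a (adjusted p = 0.33 in edgeR) and 0.81 for Oasl2 (0.414).

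The other double-stranded RNA proteins moved with the members in 6 of 8 cases in HSCs and 7 of 8 in HPCs, all lower in Ifnar -/-. Examples in HSCs are Zbp1 (-6.14) and Dhx58 (-2.26). Of the 8 upstream genes, 3 were lower in HSCs, namely Irf7 (-4.66), Irf9 (-2.25) and Stat2 (-1.04). In HPCs 3 were lower, namely Irf7 (-5.26), Irf9 (-2.64) and Irf1 (-0.38). Of 6 further Oas1 genes, Oas1b and Oas1c passed the filter on low values. Oas1b was lower in Ifnar -/- HSCs (-1.74 ± 0.21, adjusted p = 0.000222 in edgeR) and HPCs (-2.41, 0.0305). Oas1c was not called in either (0.07 and -0.26).

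Marker values also differed at P0. The plasmacytoid dendritic cell list summed to 82 to 133 CPM in wild type HSCs and 40.7 to 50.6 CPM in Ifnar -/- HSCs. Bst2 made up most of it (77 to 131 and 36.7 to 46.3 CPM), and Siglech was at 0 reads in both. In HPCs the list summed to 289 to 353 and 72.2 to 86.3 CPM, with Ccr9 at 85.9 to 126 and 21 to 23.2 CPM and Siglech at 3.88 to 7.07 and 0.0856 to 0.704 CPM. The B cell list summed to 13.7 to 27.2 CPM in wild type HPCs and 1.69 to 3.94 CPM in Ifnar -/- HPCs, and the macrophage list to 128 to 157 and 35.3 to 85.8 CPM. The progenitor list summed to 4.06e+03 to 4.66e+03 and 2.52e+03 to 3.22e+03 CPM. In HSCs the macrophage list summed to 63.4 to 139 CPM in wild type and 110 to 137 CPM in Ifnar -/-, and most of it was Cd68 (56.1 to 104 and 103 to 132 CPM). Other genes of that list were lower in Ifnar -/- HSCs without overlap, namely C1qb (2.11 to 11.5 and 0.691 to 2.05 CPM), Cd5l (0.874 to 4.13 and 0.35 to 0.719 CPM) and Vcam1 (1.77 to 7.04 and 0.546 to 1.34 CPM). The medians of C1qa (0.486 and 0.0677 CPM) and C1qc (0.75 and 0.162 CPM) were lower as well. The part of these differences in the Oas values was not tested in either cell type.

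At P14, Ifnar +/-, Flt3 ITD/+ HPCs had more Oas RNA by mean than their Flt3 +/+ counterparts, with a wide spread, and Ifnar -/- HPCs had little of it with either Flt3 genotype. Oas1g measured 2.49, 2.13, 3.13 and 4.23 RPKM in Ifnar +/-, Flt3 +/+ and 5, 11.8, 21.9 and 17.6 RPKM in Ifnar +/-, Flt3 ITD/+. In the Ifnar -/- groups it had 1, 0, 0, 0 and 1 reads with Flt3 ITD/+ and 10, 3, 2 and 3 reads with Flt3 +/+. The ranges of these 4 groups do not overlap. Oasl2 measured 18.3, 39.7, 20.4 and 40 RPKM in Ifnar +/-, Flt3 +/+ and 26.1, 58.7, 120 and 91.4 RPKM in Ifnar +/-, Flt3 ITD/+. It measured 8.83, 9.47, 8.51, 8.39 and 8.32 RPKM in Ifnar -/-, Flt3 ITD/+ and 11.6, 13.4, 8.59 and 9.48 RPKM in Ifnar -/-, Flt3 +/+. Both Ifnar +/- groups lay above both Ifnar -/- groups, and replicate 1 of Flt3 ITD/+ lay within the Flt3 +/+ range.

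Oas1a measured 31.1, 33.1, 46 and 47.6 RPKM in Ifnar +/-, Flt3 +/+ and 35.1, 73, 128 and 112 RPKM in Ifnar +/-, Flt3 ITD/+. It measured 0.63, 0.875, 0.344, 0.1 and 0.842 RPKM in Ifnar -/-, Flt3 ITD/+ and 0.84, 1.03, 0.418 and 1.16 RPKM in Ifnar -/-, Flt3 +/+. Oas1a, not Oasl2, was the most abundant member in both Ifnar +/- groups by mean. Oas3 measured 1.43, 10.9, 1.22 and 4.05 RPKM in Ifnar +/-, Flt3 +/+ and 6.25, 16.2, 31.7 and 22 RPKM in Ifnar +/-, Flt3 ITD/+. It measured 0.236, 0.814, 0.678, 0.479 and 0.288 RPKM in Ifnar -/-, Flt3 ITD/+ and 0.642, 1.3, 0.531 and 1.18 RPKM in Ifnar -/-, Flt3 +/+. The library that stands apart, replicate 2 of Ifnar +/-, Flt3 +/+, had the 10.9 RPKM, and the lowest library of that group fell within the Ifnar -/-, Flt3 +/+ range.

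Oas2 measured 1.15, 2.51, 0.472 and 1.76 RPKM in Ifnar +/-, Flt3 +/+ and 3.42, 9.48, 9.67 and 8.52 RPKM in Ifnar +/-, Flt3 ITD/+. It had 2, 0, 0, 0 and 46 reads in Ifnar -/-, Flt3 ITD/+ and 36, 20, 4 and 0 reads in Ifnar -/-, Flt3 +/+. Oasl1 measured 5.36, 7.84, 8.25 and 13.1 RPKM in Ifnar +/-, Flt3 +/+ and 10.5, 22.3, 44.8 and 36.5 RPKM in Ifnar +/-, Flt3 ITD/+. In the Ifnar -/- groups Oasl1 stayed at or below 0.688 RPKM. In the Flt3 ITD/+ group replicate 1 was the lowest library for all 6 members.

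**Figure D4:**
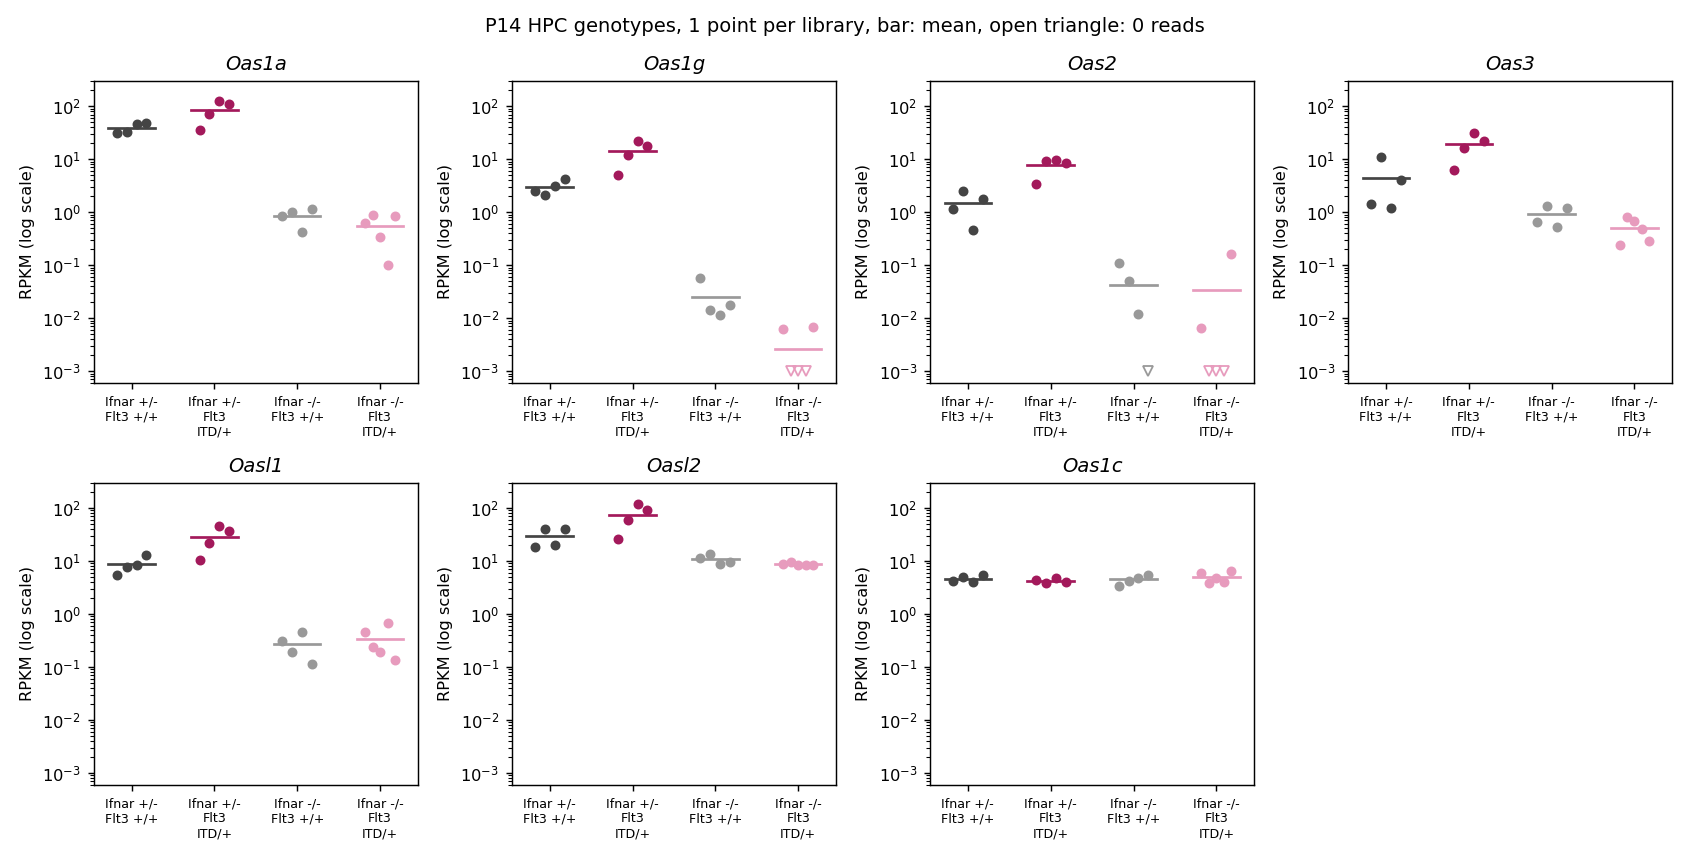
RPKM of each member and of Oas1c in every P14 HPC library (y axis, logarithmic, with open triangles at the bottom for 0 reads) in the 4 combinations of Ifnar and Flt3 genotype (x axis), 1 point a library with the group mean as a bar. The Ifnar +/-, Flt3 ITD/+ points of Oas1g (5 to 21.9 RPKM) and Oas2 (3.42 to 9.67 RPKM) lie above all points of the other groups, and the Oas1c points of the 4 groups overlap.

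Flt3 ITD/+ against Flt3 +/+ among Ifnar +/- HPCs gave 2 of 6 members higher by edgeR, where 2.77% of all 17464 genes were: Oas1g by 2.16 ± 0.4 (log2, adjusted p = 0.00513) and Oasl2 by 1.29 ± 0.34 (0.0401). The other 4 were not called, at 2.38 for Oas2 (adjusted p = 0.113 in edgeR), 2.14 for Oas3 (0.0647), 1.66 for Oasl1 (0.0609) and 1.06 for Oas1a (0.158). The median of the members was 1.9, and that of all genes was -0.01. Without the library that stands apart, 3 were called: Oas1g (2.01, adjusted p = 0.00208 in edgeR), Oasl2 (1.42, 0.0124) and Oas3 (3.03, 0.00361). Leaving it out also moved the count over all genes from 895 to 5783. Leaving out any 1 of the other Flt3 +/+ libraries, or Flt3 ITD/+ replicate 2, 3 or 4, gave 1 member called. Of the other double-stranded RNA proteins 4 of 8 were higher, and of the upstream genes 2 of 8, namely Irf7 (2.23) and Stat2 (1.22).

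Among Ifnar -/- HPCs, edgeR called 0 members between the Flt3 genotypes, where 0.956% of all genes were called, and DESeq2 also called 0. There was 1 at an unadjusted p under 0.05, Oas1g, at 2 reads against 18 (-2.82, adjusted p = 0.289 in edgeR). The pooled ratio of Flt3 ITD/+ to Flt3 +/+ in these mice was 0.107 (95% counting interval 0.0121 to 0.448) for Oas1g. It was 0.796 for Oasl2, whose ranges overlapped.

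Loss of Ifnar lowered 5 of 6 members with Flt3 +/+, where 3.56% of all genes were lower: Oas1g by -7.1 ± 0.56 (adjusted p = 1.36e-06, edgeR), Oas1a by -5.71 ± 0.59 (0.000118), Oas2 by -5.28 ± 1.12 (0.0327), Oasl1 by -5.23 ± 0.6 (0.000264) and Oasl2 by -1.63 ± 0.35 (0.0299). Oas3 was at -2.36 (adjusted p = 0.0515, edgeR), and at -1.47 (0.0691) without the library that stands apart. It was called with RLE size factors (-2.37, adjusted p = 0.0464 in edgeR), by DESeq2 (-2.37, 0.00797) and with the replicate block (-2.11, 0.0407). Leaving that library out also gave 5 members called and moved the count over all genes from 833 to 6233. Leaving out Ifnar +/-, Flt3 +/+ replicate 3 or 4, or any 1 of the 4 Ifnar -/-, Flt3 +/+ libraries, gave 3. With Flt3 ITD/+ all 6 were lower, where 1.93% of all genes were: Oas2 by -7.85 ± 1.13 (adjusted p = 0.000889, edgeR), Oas1a by -7.35 ± 0.58 (1.2e-06), Oasl1 by -6.45 ± 0.57 (3e-06), Oas3 by -5.32 ± 0.69 (0.000262), Oasl2 by -3.16 ± 0.34 (1.64e-05) and Oas1g (6.06e-09). Pooled ratios of Ifnar +/- to Ifnar -/- were 2.78 for Oasl2 and 45.7 for Oas1a with Flt3 +/+, and 8.46 and 158 with Flt3 ITD/+. The Oas1g ratio with Flt3 ITD/+, on 2 reads in the Ifnar -/- group, was 5.29e+03 with an interval of 1.46e+03 to 4.37e+04.

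The difference between these effects was tested as the Flt3 by Ifnar interaction. edgeR called 0 of 6 members, with adjusted p from 0.0834 to 0.259, where 0.0115% of all genes were called, and 4 members had an unadjusted p under 0.05. Without the library that stands apart edgeR called 3, Oas1g (-4.83, adjusted p = 0.00367), Oas3 (-3.86, 0.0037) and Oasl2 (-1.67, 0.0219), while the count over all genes went from 2 to 5582. Without Ifnar +/-, Flt3 ITD/+ replicate 1 it called 1 member. DESeq2 on all 17 libraries also called 3, and they were the same genes.

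The plasmacytoid dendritic cell list summed to 105 to 127 CPM in Ifnar +/-, Flt3 +/+, 94 to 175 in Ifnar +/-, Flt3 ITD/+, 48.3 to 55.2 in Ifnar -/-, Flt3 ITD/+ and 70 to 74.8 in Ifnar -/-, Flt3 +/+. Siglech was at most 0.291 CPM in any of these libraries. In the same order of groups, the HSC list summed to 519 to 1.2e+03, 525 to 645, 947 to 1.08e+03 and 1.13e+03 to 1.53e+03 CPM. The progenitor list summed to 1.69e+03 to 7.29e+03, 4.38e+03 to 6.21e+03, 2.23e+03 to 3.85e+03 and 3.6e+03 to 4.14e+03 CPM. The macrophage list summed to 83.2 to 147, 117 to 145, 77.9 to 322 and 77.6 to 98.6 CPM. Between Flt3 +/+ and Flt3 ITD/+ with Ifnar +/-, Csf1r was at 2.62 to 16.6 and 38.5 to 61.9 CPM, Adgre1 at 0.905 to 1.35 and 13.9 to 19.2 CPM, and the median of Kit at 208 and 689 CPM. Csf1r and Adgre1 are single genes of the macrophage list. The sum over its 9 genes overlapped between these groups, so the list as a whole did not separate them. The part of such cells in the Oas values was not tested.

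Where Ifnar was lost, the makeup of the family shifted as well as its level. The summed RPKM of the 6 was 207 ± 89.7 (SD, n = 5) in wild type and 13.5 ± 4.69 (n = 4) in Ifnar -/- P0 HSCs, and 161 ± 42.3 (n = 4) and 6.18 ± 1.6 (n = 4) in P0 HPCs. At P14 it was 86.5 ± 21.9 (n = 4) and 230 ± 117 (n = 4) in the Ifnar +/- groups with Flt3 +/+ and Flt3 ITD/+, and 12.9 and 10.1 in the Ifnar -/- groups. Oasl2 supplied 67.9% and 79.1% of what remained in Ifnar -/- HSCs and HPCs at P0, and 85.8% and 83.7% in the P14 Ifnar -/- groups with Flt3 ITD/+ and Flt3 +/+.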

How the data were processed

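STAR (3.0.4) had aligned the reads and featureCounts (1.4.5) had counted them, per the submitters' processing notes. Which genome build, annotation and strand setting they used is not given in the sources used here. The deposited HPC age columns and all genotype columns hold raw counts. The deposited HSC age columns hold RPKM. HSC ages and the HSC to HPC comparison were therefore tested with limma 3.58.1 (trend, robust) on log2(TMM-scaled RPKM + 0.5), for genes with RPKM over 1 in at least 3 libraries. Counts were tested with edgeR 4.0.16 (quasi-likelihood, TMM, filterByExpr) in R 4.3.3, with DESeq2 1.42.0 as an alternative. All groups of a cell type and experiment entered a fit, without covariates. A call is a Benjamini-Hochberg adjusted p under 0.05 over all genes tested. The edgeR SE is the log2 difference over the root of F. Reads recovered from the HSC values were whole within 1e-05 for 100.0% of values of 25622 genes, and edgeR on them called 604 genes from E16.5 to E18.5, where limma called 728. The same gene lengths turned counts into RPKM. For Oas3 and Oasl2 the lengths were found from the values (5227 and 3879 bases). They are shorter than the exon lengths of the GENCODE M21 annotation (7069 and 6374 bases), and ranks of members by RPKM depend on them.

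Named genes are the members, listed pathway genes that were called, and the 5 genes outside the family most like the members in each cell type. The rule asked for values of 4 called pathway genes per comparison, and those beyond 4 were added after their values were seen. Some listed genes are not reported here. The members and lists were chosen with earlier results of these data known. Tests were checked on simulated data. Alternatives were other scalings, filters, pseudocounts, tools, a replicate block, fits of the compared groups alone, and leaving out each library. One column of the tables was not used (1 in all), nor were 2 rows that are not mouse genes (at most 0.000144% of reads).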

Additional observations from a re-analysis of the deposited data

Results flagged for a closer look

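Within groups of 4 or 5 libraries, 7 of 101 gene and group pairs held a library that lay far from the others by Dixon's criterion, which chance alone meets in about 1 of 20. Of these, 4 are in Ifnar -/- cells, on 1 to 46 reads. Oas2 had 0.166 RPKM (46 reads) in Ifnar -/-, Flt3 ITD/+ replicate 5 at P14, where the other 4 libraries had 0 to 0.00659 RPKM. Oas2 also had 0.0691 RPKM (4 reads) in P0 Ifnar -/- HPC replicate 4 and 0.00539 RPKM (1 read) in P0 Ifnar -/- HSC replicate 3, and no read in the other libraries of those groups. Oas1g had 0.0573 RPKM (10 reads) in Ifnar -/-, Flt3 +/+ replicate 1 at P14, against 0.0116 to 0.0175 RPKM in the other 3.

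The other 3 are in the age series. Oasl2 had 86.2 RPKM in P0 HPC replicate 2, against 40.6 to 47.1 RPKM in the other 3 libraries, and 44.2 RPKM in P14 HPC replicate 4, against 26.4 to 31.5 RPKM in the other 4. Oas3 had 9.12 RPKM in P14 HSC replicate 1, against 8.51 to 8.61 RPKM, a narrow range in which a small gap is enough.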

How the results depend on the processing

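The count of members called was 6 under every alternative and with each library left out for E18.5 against E16.5 in HSCs, for Ifnar -/- against wild type at P0 in HSCs and in HPCs, and for Ifnar -/- against Ifnar +/- with Flt3 ITD/+. Over single genes, 2241 alternative values lay on the same side of the threshold, 39 passed it newly and 82 no longer passed. None reversed direction where the main or the alternative fit made a call. Changes of sign without a call were not counted. Counts of members moved as follows, and the cause was not tested. For P7 against P0 in HSCs (3 members) the count was 1 without the filter on low RPKM, 0 with the compared groups fitted alone, and 0 to 3 with single libraries left out. For P14 against P7 in HSCs (0) it was 1 with the compared groups alone. For P0 against E18.5 in HSCs (4) it was 2 to 5 with libraries left out. In HPCs, P0 against E16.5 (4) gave 2 with the compared groups alone, and P7 against P0 (1) gave 2 with DESeq2 and 0 to 1 with libraries left out. With libraries left out, P14 against P7 in HPCs (1) gave 1 to 2 and 8 weeks against P14 (3) gave 2 to 5. HSCs against HPCs gave 2 at P0 without TMM scaling (1 with it) and, with libraries left out, 0 to 1 at E16.5 (0), 1 to 2 at P0 (1) and 1 to 2 at 8 weeks (1). Flt3 ITD/+ against Flt3 +/+ with Ifnar +/- (2) gave 4 with DESeq2, 1 without the filter, 1 with the compared groups alone and 1 to 3 with libraries left out. Ifnar loss with Flt3 +/+ (5) gave 3 to 5 with libraries left out. The interaction (0) gave 3 with DESeq2 and 0 to 3 with libraries left out. A fit with the replicate number as a block gave 5 members for Flt3 ITD/+ with Ifnar +/- in place of 2. Whether the numbers pair libraries is not given in the labels. Of same-numbered pairs, 15 of 24 at P14 had correlated deviations over 0.1, as did 2 of 4 and 1 of 4 at P0 in HSCs and HPCs. Their median correlation was 0.156 at P14, 0.092 in P0 HSCs and -0.003 in P0 HPCs. For pairs with different numbers it was -0.019, -0.078 and -0.001.

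Counts over all genes, which are the background of the members, also moved by more than 1.5 times. For P0 against E18.5 in HSCs the count was 635, and 140 with the compared groups alone. For E18.5 against E16.5 it was 728, and 471 without the filter. For P0 against E16.5 in HPCs it was 485, with 170 (compared groups alone) to 879 (DESeq2). For Ifnar -/- at P0 it was 186 in HSCs and 338 with DESeq2, and 1400 in HPCs, with 660 to 2343 when libraries were left out. At P14 it was 895 for Flt3 ITD/+ with Ifnar +/-, with 164 (compared groups alone) to 2613 (DESeq2), and 833 for Ifnar loss with Flt3 +/+, with 44 to 2999 under the same settings. The interaction went from 2 to 2396 with DESeq2. Also by DESeq2, Flt3 ITD/+ with Ifnar -/- went from 167 to 424 and the P0 interaction from 301 to 751. With the compared groups alone, the count went in HSCs from 7 to 0 for E16.5 against E14.5, from 794 to 414 for P7 against P0 and from 2807 to 1837 for 8 weeks against P0. In HPCs it went with that setting from 218 to 640 for P7 against P0, from 4275 to 2657 for 8 weeks against P14 and from 710 to 1398 for Ifnar loss with Flt3 ITD/+. Without the filter, P14 against P7 in HSCs went from 229 to 143. In Ifnar -/- libraries Oas1g and Oas2 rest on few or no reads, and their folds are lower bounds or wide intervals.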
